A study of Mus musculus with 7 samples.

Results

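Immediate early genes are transcribed within minutes of a stimulus without the need for new protein, and their short-lived mRNA makes them a record of recent signaling. Fos, Fosb, Jun, Junb and Jund encode subunits of AP-1, a transcription factor that binds DNA as a dimer, and Atf3 encodes a related partner that often acts as a repressor. Egr1 and Nr4a1 encode a zinc finger factor and an orphan nuclear receptor, Ier2 a nuclear protein, and Dusp1 a phosphatase that switches off the stress-activated MAP kinases. In skeletal muscle these genes are known to accompany the exit of satellite cells from quiescence, to be active in macrophages, and to respond to the enzymatic digestion by which cells are released from the tissue.

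The 10 genes were taken as a list of names, and all 10 are among the 23930 genes of the deposited table. The table covers cells sorted for green fluorescence from inducible Pax7-GFP mice, in which tamoxifen lets a Cre driven from the Pax7 gene switch on a reporter in satellite cells. All mice carried the reporter and received tamoxifen. They entered normocapnia (NC, room air) or hypercapnia (HC, 10% CO2) at 12 weeks of age and were collected at 16 weeks, after 4 weeks of exposure. The genotype label is C57BL/6 for NC1 and counts upward through C57BL/12 for HC4, whereas the growth protocol names C57/B6 littermates for all. The 3 normocapnia libraries are called NC1 to NC3 and the 4 hypercapnia libraries HC1 to HC4. By the study's methods, the tibialis anterior and gastrocnemius muscles had been injured with cardiotoxin 3 days before all muscles of the hind leg were taken. The labels mention neither this injury nor its time, and the name of the deposited table gives 40 hours instead, a conflict that was not resolved here. Nothing in the labels says whether each library came from a single mouse, so p-values measure the spread between these libraries. The difference in read counts between libraries, as a chi-square per degree of freedom, was 24.6 for HC1 and HC2 and 27.3 for HC3 and HC4. For every other pair it was 104.6 or more. The p-values nevertheless treat all libraries as independent.

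Values are reads scaled to an equal total in every library (RPM), from a panel that amplifies a single stretch of each gene, so RPM compares a gene between libraries, and where genes are ordered or summed by RPM below, that is an order or a sum of amplicons and not of transcripts. The libraries hold 14527445 to 23388710 reads. Levels of cell type markers differed widely between them. Pax7, the label's defining gene, was at 268, 8.25 and 4.34 RPM in NC1 to NC3 and at 21.5, 20.1, 79.5 and 59.7 RPM in HC1 to HC4. The myogenic factors Myf5 and Myod1 were also highest in NC1, at 218 and 302 RPM. The 10 satellite cell markers, led by Sdc4 and Des, summed to 545 to 3476 RPM in normocapnia and 786 to 1531 RPM in hypercapnia, and 0 of 10 were called. The 10 macrophage markers, led by Lyz2 and Cd68, summed to 12146 to 34613 RPM and 19708 to 24557 RPM. Lyz2 alone stood at 29108 RPM in NC3 and 8354 RPM in NC1. Of the macrophage markers 1 was called higher in hypercapnia, Adgre1, and of the 7 neutrophil markers 1, Mmp8, both named after their values were seen. Fibro-adipogenic markers (6, led by Dcn and Gsn) summed to 1425 to 1996 RPM and 1244 to 3153 RPM, and endothelial markers (6, led by Pecam1 and Cdh5) to 88.5 to 216 RPM and 45.5 to 491 RPM. Neutrophil markers (led by Csf3r and S100a9) summed to 82.1 to 227 RPM and 105 to 329 RPM, and myofiber markers (6, led by Tnnt3 and Mylpf) to 239 to 4411 RPM and 345 to 2094 RPM. Lymphocyte markers (5 of 7 measured, led by Ms4a1 and Nkg7) summed to no more than 3.05 RPM, with all 5 at 0 in at least 1 library. Of 5 red blood cell markers 2 were measured, the higher in RPM being Alas2 at up to 15.4 RPM. The amplicons of C1qa and Ly6g, defining genes of macrophages and neutrophils, were at or near 0 throughout, whereas that of C1qb, whose product joins C1QA in one complex, averaged 644 RPM. The part of cell composition in the results below was not tested, and fewer cells of a type cannot be told apart from less RNA per cell.

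The promoters of these genes are known for elements that answer signaling directly, and the 250 bases before the start of 5 of them are printed here because their mRNAs either separated the groups (Atf3), were, with Ier2, whose promoter was not in the table used, the most variable between normocapnia libraries (Fosb, Nr4a1), stand for the family (Fos) or behaved differently in NC3 (Dusp1). Sequences are from RefSeq on GRCm38.p6, 5′ to 3′ on the strand of the gene, and capitals mark TGACG (the core of a cAMP response element, searched on both strands), the full element TGACGTCA, which contains TGACG, and TATAAA. They lie at chr12:85473640-85473889 (plus strand), chr7:19310046-19310295 (minus), chr1:191183334-191183583 (minus), chr17:26508473-26508722 (minus) and chr15:101266596-101266845 (plus).
Fos: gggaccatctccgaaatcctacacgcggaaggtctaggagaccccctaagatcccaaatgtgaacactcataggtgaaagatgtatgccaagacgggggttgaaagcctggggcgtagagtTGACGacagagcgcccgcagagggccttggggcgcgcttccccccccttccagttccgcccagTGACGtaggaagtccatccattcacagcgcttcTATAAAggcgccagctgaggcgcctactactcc
Fosb: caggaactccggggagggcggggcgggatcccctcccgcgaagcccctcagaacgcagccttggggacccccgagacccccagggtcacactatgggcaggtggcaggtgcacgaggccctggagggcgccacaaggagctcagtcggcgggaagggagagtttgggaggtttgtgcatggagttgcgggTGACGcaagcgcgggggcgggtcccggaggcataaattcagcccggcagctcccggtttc
Atf3: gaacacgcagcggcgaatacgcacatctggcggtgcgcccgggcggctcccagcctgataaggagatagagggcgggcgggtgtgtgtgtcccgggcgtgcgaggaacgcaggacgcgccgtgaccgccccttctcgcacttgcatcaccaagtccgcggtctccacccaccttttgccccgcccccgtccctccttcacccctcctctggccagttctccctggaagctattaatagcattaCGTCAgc
Dusp1: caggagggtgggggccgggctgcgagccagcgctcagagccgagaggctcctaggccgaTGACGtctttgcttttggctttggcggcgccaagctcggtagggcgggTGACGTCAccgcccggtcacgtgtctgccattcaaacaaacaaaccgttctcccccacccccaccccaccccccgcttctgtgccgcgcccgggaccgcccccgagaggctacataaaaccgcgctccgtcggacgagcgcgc
Nr4a1: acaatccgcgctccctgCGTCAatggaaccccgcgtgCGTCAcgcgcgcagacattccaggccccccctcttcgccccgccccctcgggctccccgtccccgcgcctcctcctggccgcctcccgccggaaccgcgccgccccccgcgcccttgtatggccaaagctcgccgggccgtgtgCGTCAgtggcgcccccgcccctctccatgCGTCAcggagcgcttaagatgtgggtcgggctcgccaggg

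Promoters of 8 of the 10 members were in the RefSeq table, all but Egr1 and Ier2. TGACG on either strand was found in the 250 bases before the start of 6 of these 8 (Fos, Fosb, Junb, Atf3, Dusp1 and Nr4a1), against 17.8% of all 32851 promoters. It begins 66 and 129 bases before the start of Fos, 60 before that of Fosb and 7 before that of Atf3, and Nr4a1 holds 4 copies. The full TGACGTCA was found in Dusp1 only, where it begins 143 bases before the start, against 1.55% of all promoters. TATAAA was found in Fos (12.4% of all promoters). Jun holds the AP-1 variant TGACATCA, which 2.93% of all promoters hold; this motif was added after the sequence of Jun had been seen. None of the 8 holds TGACTCA (4.46%), the CArG box of serum response factor (1.47%) or the EGR site GCGTGGGCG (0.536%), while GCGGGGGCG occurred in Fosb and Nr4a1 (2.57%). These matches describe letters in a window of fixed length, which does not reach elements further upstream.

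Among the 10 genes, Atf3 was called higher in hypercapnia, and the other 9 did not pass the test in either direction. A gene is called here at the study's thresholds, an unadjusted limma p under 0.05 and a fold change above 1.5 on the log2(RPM + 1) scale. By this rule 615 of all 23930 genes were called, or 2.57% (1.43% higher and 1.14% lower), and 5.54% of those with a mean of 10 RPM or above. Without NC1 the calls rose to 1495 higher and 495 lower, or 8.32%, and without NC2 to 671 higher and 534 lower, or 5.04%. An unadjusted p under the threshold was reached by 4.66% of genes. After Benjamini-Hochberg adjustment over all genes 0 genes passed 0.05 in limma, of 1114 with an unadjusted p under 0.05. In edgeR, on the whole reads recovered from the table, 0 also passed, of 806 (6.06%) at an unadjusted p under 0.05, and 6.03% of genes were called, 294 higher and 508 lower. In DESeq2 6.25% were called, 519 higher and 785 lower, and 29 genes (0.223%) passed after adjustment, none of them a member. The median log2 difference of the 10 members was 0.04, with 6 above 0 and 4 below, beside a median of 0.13 for the 8229 genes averaging 10 RPM or above. The latter moved to -0.01 with median-of-ratios scaling, a shift of the whole scale, and that of the members then moved to -0.10, with 4 above 0 and 6 below. In edgeR and DESeq2 2 members were above 0 (Atf3 and Ier2) and 8 below, so the signs given below for Fos, Fosb, Junb and Nr4a1 depend on the method. For each of these genes the mean RPM was lower in hypercapnia, whereas the mean of log2(RPM + 1) was higher.

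**Figure D1:**
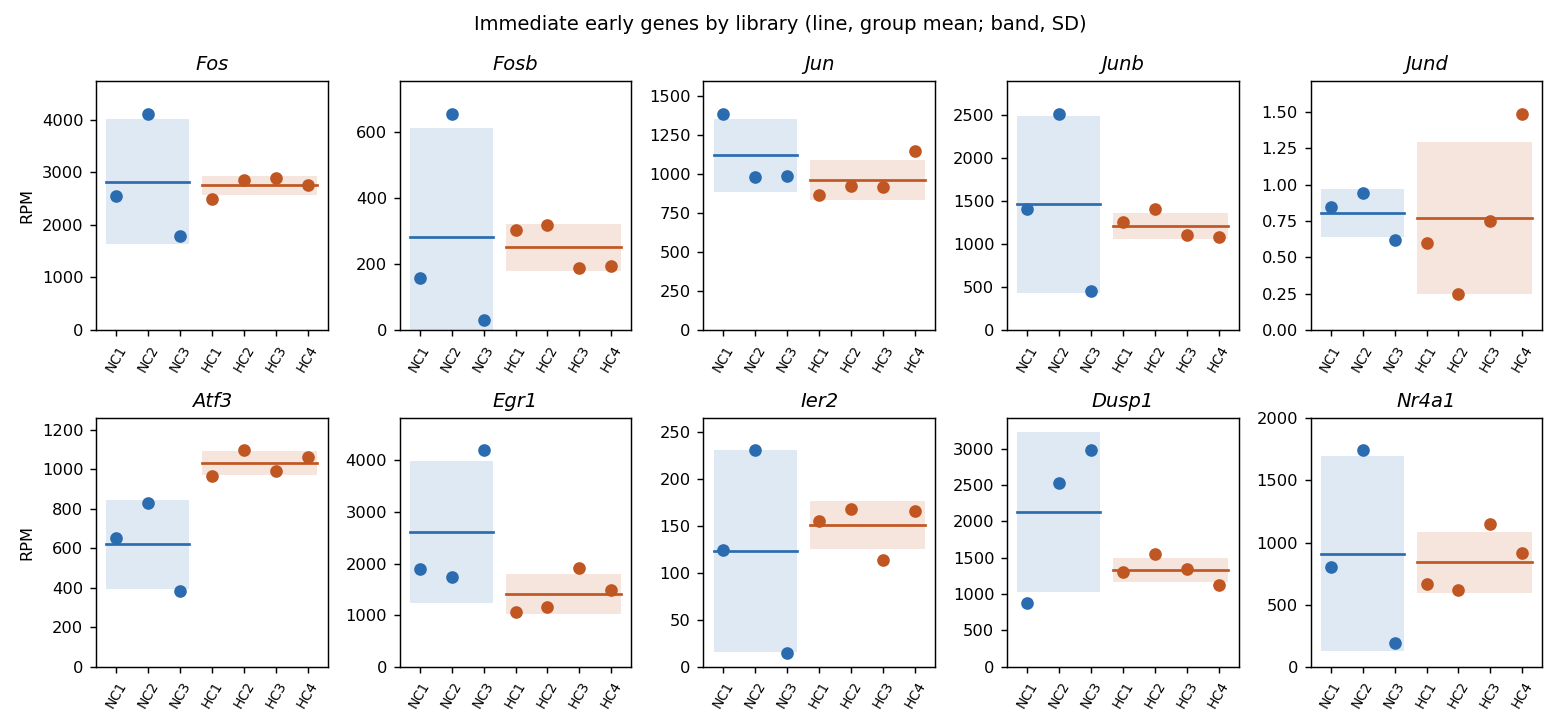
RPM of each immediate early gene (vertical axes, linear and starting at 0, a separate scale for each gene) in the 3 normocapnia libraries (blue) and 4 hypercapnia libraries (orange). Points are libraries, lines group means and bands the SD, drawn no lower than 0. Atf3 is the only panel in which the groups do not overlap, and in 6 others (Fos, Fosb, Junb, Ier2, Dusp1 and Nr4a1) all hypercapnia points lie between the lowest and highest normocapnia points.

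Atf3 encodes a stress-induced member of the ATF family that pairs with JUN proteins. It stood at 651, 830.0 and 383 RPM in NC1 to NC3, and the hypercapnia libraries HC1 to HC4 gave 967, 1097, 992 and 1065 RPM. Every hypercapnia library lay above every normocapnia library, and NC3 was the lowest of all. The group means were 621 ± 225 RPM (SD, n = 3) and 1031 ± 61.1 RPM (SD, n = 4), a fold change of 1.74 (log2 0.80, SE 0.27, 95% interval 0.13 to 1.46; limma adjusted p = 0.915). Such a separation was seen in 4.83% of all genes and in 9.62% of the 8229 genes averaging 10 RPM or above, and in 4.96% with hypercapnia the higher. Leaving out 1 library at a time, Atf3 was called only without NC2 (log2 1.04), while without NC3 the difference fell under the fold threshold (0.49), and without each of the other 5 libraries it no longer passed the threshold on p (0.77 to 0.87). On whole reads Atf3 passed the thresholds in DESeq2 (log2 0.63, adjusted p = 0.488) but not in edgeR (0.66).

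**Figure D2:**
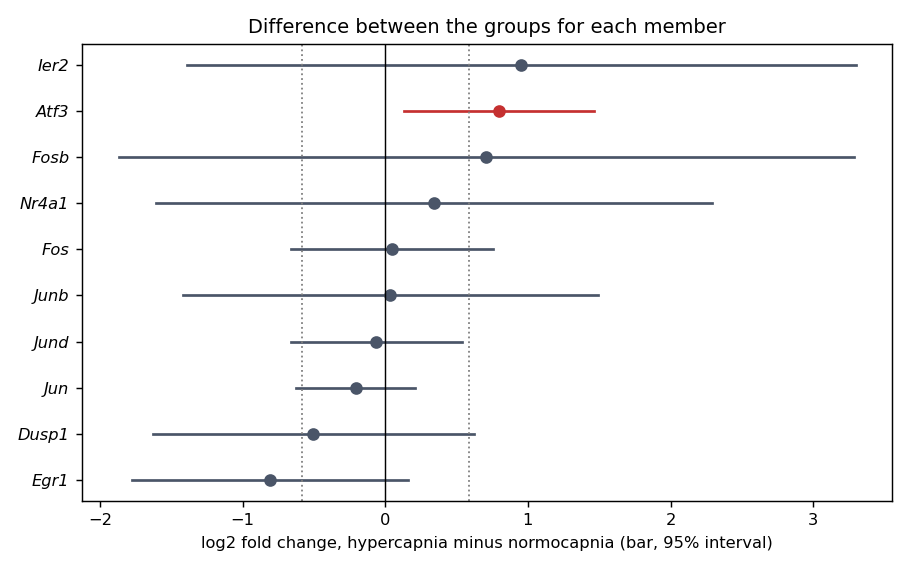
Difference in log2(RPM + 1) between hypercapnia and normocapnia for each member (horizontal axis, positive where hypercapnia is higher), with its 95% interval from limma over 3 and 4 libraries. Dotted lines mark a fold change of 1.5 in either direction, and the interval excludes 0 for Atf3 (red) alone, from 0.13 to 1.46.

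The FOS subunits did not separate the groups. Fos stood at 2552, 4114 and 1784 RPM in NC1 to NC3 and at 2498, 2857, 2890.5 and 2764 RPM in HC1 to HC4. The hypercapnia libraries were close to each other and lay between NC3 and NC2. Their mean of 2752 ± 178 RPM (SD, n = 4) lay below the 2817 ± 1187 RPM (SD, n = 3) of normocapnia. The log2 difference, taken between means of log2 values, was nevertheless 0.05 (SE 0.28, 95% interval -0.66 to 0.76). Fosb encodes a relative of FOS that forms the same kind of dimer. It stood at 159, 655 and 30.8 RPM in normocapnia and at 304, 318, 187 and 193 RPM in hypercapnia. Normocapnia thus held both the highest and the lowest library, 21.3-fold apart, whereas the hypercapnia libraries differed by no more than 1.70-fold. The group difference was 0.71 on the log2 scale with a 95% interval that spans both a fall and a rise of several fold, from -1.87 to 3.28.

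The JUN subunits likewise overlapped. Jun was the steadiest of the well-measured members in normocapnia, at 1388, 984 and 988 RPM, and stood at 864, 923, 914 and 1150.4 RPM in hypercapnia. Of the hypercapnia libraries 3 lay below all of normocapnia, and HC4 did not. The log2 difference was -0.21 (95% interval -0.62 to 0.21). Junb, whose product often opposes JUN, had 1408, 2522 and 459.8 RPM against 1255, 1409, 1104 and 1088 RPM. As for Fos, NC2 was the highest library and NC3 the lowest, and the difference was 0.04 (-1.42 to 1.49). Jund, the subunit regarded as the most constantly expressed, was barely detected by its amplicon, at 0.847, 0.941 and 0.620 RPM against 0.599, 0.251, 0.750 and 1.49 RPM. These values rest on 5 to 22 reads per library, close to the 3 reads taken as the floor, so a difference in Jund was not detectable at this depth (log2 -0.07, 95% interval -0.66 to 0.53). The other 9 members rest on 219 to 96218 reads in each library.

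Egr1, a serum-induced activator of later genes, had the largest negative difference of the 10 and did not pass the test. It stood at 1893, 1748 and 4196 RPM in NC1 to NC3 and at 1069, 1150.1, 1923 and 1498 RPM in HC1 to HC4. Unlike Fos and Junb it was highest in NC3, and HC3 lay above NC1 and NC2, so the groups overlapped. The mean was 2613 ± 1374 RPM (SD, n = 3) against 1410 ± 389 RPM (SD, n = 4), a log2 difference of -0.81 (95% interval -1.78 to 0.16; limma adjusted p = 0.915). The difference was -1.17 in edgeR, where it missed the call, and -1.23 in DESeq2, where it was called (adjusted p = 0.454), and -0.41 in limma without NC3. Nr4a1, an early gene of many receptors, gave 799.9, 1743 and 189.8 RPM, set against 669, 617, 1152 and 919.5 RPM, with all of hypercapnia inside the normocapnia range (log2 0.34, 95% interval -1.61 to 2.29).

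Ier2 resembled Fosb. It stood at 124, 231 and 15.1 RPM in normocapnia, a 15.3-fold range, and at 156, 168, 114 and 166 RPM in hypercapnia, a 1.48-fold range. The log2 difference of 0.95 was the largest of the 10 yet far from the test's threshold (95% interval -1.39 to 3.30). Dusp1 ends the signal that the other members answer. It stood at 881, 2522 and 2979 RPM in normocapnia and at 1308, 1548, 1341 and 1129 RPM in hypercapnia. Here NC1 was the lowest library and NC2 and NC3 lay above all of hypercapnia, giving a log2 difference of -0.50 (95% interval -1.63 to 0.62). Without NC1 it was called lower (log2 -1.05).

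For most members the widest differences were those among the normocapnia libraries. NC2 was the highest of the 7 libraries for 5 members (Fos, Fosb, Junb, Ier2 and Nr4a1), and for 18.4% of all genes at 10 RPM or more. NC3 was the lowest for 6, the same 5 and Atf3, and the highest for Egr1 and Dusp1. NC3 was also the lowest library for 49.5% of all genes at 10 RPM or more and the highest for 19.7%, and these shares stand beside the 6 and 2 of 10 members. For 6 of the 9 members at 10 RPM or more, all hypercapnia values lay inside the normocapnia range, which held for 45.2% of all such genes. On the log2 scale the SD was larger in normocapnia than in hypercapnia for all 9, and for 88.6% of all genes at that level. The median SD of the 9 was 0.95 in normocapnia and 0.19 in hypercapnia, beside 0.66 and 0.23 for all 8229 genes. Within normocapnia the SD of Fosb (2.19) exceeded that of 96.8% of these genes, that of Ier2 (2.02) 95.4%, that of Nr4a1 (1.62) 90.3% and that of Junb (1.25) 81.8%. Fos (0.60) and Jun (0.28) exceeded 44.6% and 13.5% only. In hypercapnia, Atf3 and Fos were among the steadiest, with an SD larger than that of only 6.55% and 8.86% of genes. The SD of Nr4a1, Fosb and Egr1 exceeded that of 79.15%, 78.7% and 76.18% there. The other members at that level lay between, from 32.06% for Junb to 56.82% for Ier2.

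**Figure D3:**
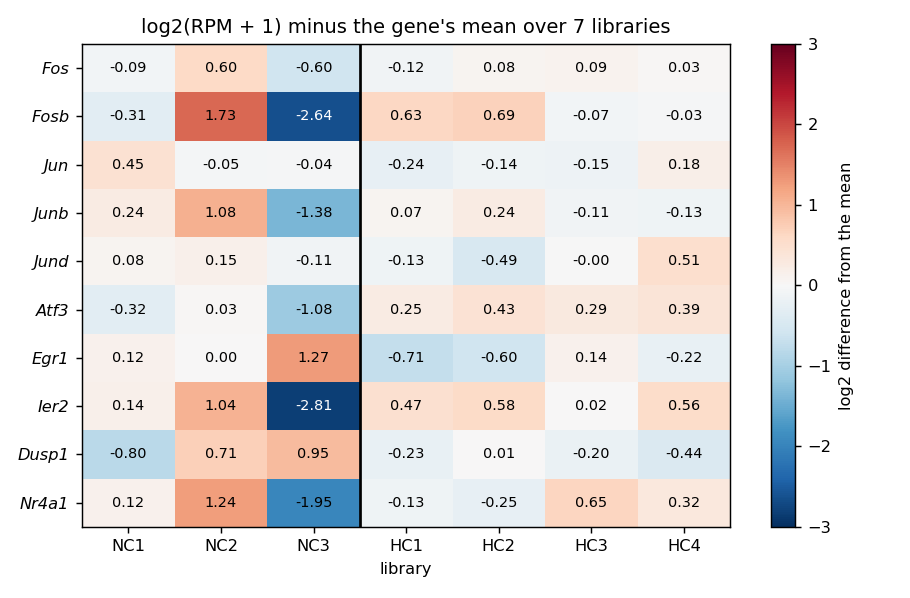
log2(RPM + 1) of each member (rows) in each library (columns) minus that gene's mean over the 7 libraries, from blue (lower) to red (higher), with the value in each cell. NC3 ranges from -2.81 for Ier2 to 1.27 for Egr1, whereas the hypercapnia columns stay between -0.71 and 0.69.

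The hypercapnia libraries showed smaller differences. Nr4a1 was lower in HC1 and HC2 (669 and 617 RPM) than in HC3 and HC4 (1152 and 919.5 RPM), and Egr1 likewise (1069 and 1150.1 RPM against 1923 and 1498 RPM). Fosb was higher in HC1 and HC2 (304 and 318 RPM) than in HC3 and HC4 (187 and 193 RPM). Pax7 (21.5 and 20.1 RPM against 79.5 and 59.7 RPM) and the endothelial gene Pecam1 (28.2 and 26.2 RPM against 317 and 229 RPM) divided the same libraries, and their part in these differences was not tested.

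The sign of 5 members (Fos, Fosb, Junb, Ier2 and Nr4a1) turned when NC3 was left out. With all libraries 6 of 10 members had a positive difference. Without NC3 only Atf3 did, 9 were below 0, and the median of the 10 fell to -0.26, beside -0.07 for all genes at 10 RPM or more. Without NC2 6 were above 0 and the median was 0.47, beside 0.16. For Fosb the difference ran from -0.41 without NC3 to 1.77 without NC2, for Ier2 from -0.18 to 1.74 and for Nr4a1 from -0.54 to 1.06. Atf3, whose groups do not overlap and whose sign therefore cannot turn, ran from 0.49 to 1.04. Egr1 stayed below 0, from -0.41 to -1.04, as did Jun and Dusp1.

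**Figure D4:**
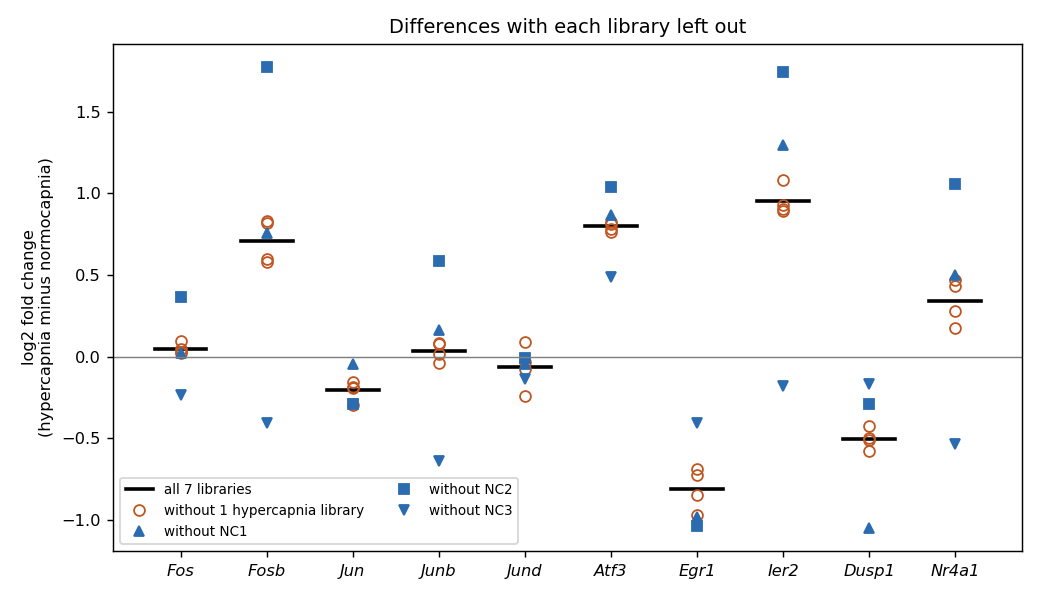
log2 fold change (hypercapnia minus normocapnia) of each member with all 7 libraries (bars) and with each library left out (symbols). Fosb runs from 1.77 without NC2 (squares) to -0.41 without NC3 (downward triangles).

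Signals reach these genes through MAP kinases and the factors those kinases phosphorylate. Of 25 such genes, all measured, 1 was called, and it was lower: Map2k7, the kinase that activates JNK, at 65.3, 80.3 and 75.6 RPM in NC1 to NC3, with 41.4, 52.7, 54.7 and 43.7 RPM for HC1 to HC4 (log2 -0.61, SE 0.13, limma adjusted p = 0.712). The count for the list was 4, all lower, in DESeq2, 1 higher and 5 lower without NC1, 3 lower without NC3, and 0 without HC1 or HC4. Map2k7 fell under the fold threshold without NC2 (-0.55), HC1 (-0.54) or HC4 (-0.57). The groups were also apart, and hypercapnia the lower, for Creb1, whose product binds the cAMP response element (log2 -0.42, SE 0.09), and for the kinase Mapk8 (-0.47, SE 0.19), both picked out with their values known. Neither reached the fold threshold in limma. Mapkapk2, with the highest RPM of the list, overlapped (-0.45, SE 0.38). In all, 10 of the 25 had a positive and 15 a negative difference, with a median of -0.15.

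Relatives of the members were next examined. Of 12 other AP-1 genes measured (Atf7 is not in the table) 0 were called in limma, with a median of 0.25, while edgeR called 2 and DESeq2 3, all lower. Without NC1 1 was called higher and 2 lower, without NC2 1 higher, and without HC3 1 lower. Jdp2, a repressor of AP-1, gave 88.5, 121 and 129 RPM, set against 46.3, 69.6, 105 and 64.3 RPM (log2 -0.69, SE 0.30; called lower in edgeR and DESeq2), while Fosl1 (0.66, SE 0.35) and Fosl2, with the highest RPM of the list (-0.26, SE 0.36) also overlapped. Of 10 relatives of Egr1, Nr4a1 and Ier2, including the EGR co-repressors Nab1 and Nab2, 1 was called in limma and 3 in DESeq2, all lower. Without NC2 1 was called higher, and without HC3 2 were called lower. The limma call with all libraries was Ier5l, lower in hypercapnia at 10.7, 12.3 and 9.91 RPM against 4.15, 6.48, 6.68 and 9.07 RPM (log2 -0.69, SE 0.23, limma adjusted p = 0.915). The call was lost when any library other than HC4 was left out, and also with a pseudocount of 5 RPM, with the filter at 1 RPM, with a limma prior that follows the mean and in edgeR without a filter. Nab2 (-0.59, SE 0.26) and Nab1 (0.66, SE 0.35) were not called in limma with all libraries, and Nab2 was called lower in DESeq2 (-0.88), in edgeR without a filter (-0.81) and without NC1 (-0.87). Of 9 other MAP kinase phosphatases 0 were called (median 0.28), with Dusp16 at -0.45 (SE 0.25), Dusp7 at -0.76 (SE 0.50) and Dusp6, which acts on ERK, at 0.29 (SE 0.28). Without NC1 2 were called higher and 1 lower, the latter Dusp7 (-1.24), 1 was called lower without NC3 and 1 without HC3, and Dusp7 was also called lower in edgeR without a filter (-1.14).

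Short-lived mRNAs such as these are removed by proteins that bind AU-rich elements. Of 5 such genes measured (Zfp36l1 is not in the table) 0 were called with all libraries, and 1, Zfp36, was called higher without NC2 (0.96). Zfp36, itself an early gene, stood at 1498, 4185 and 939 RPM in NC1 to NC3, and the hypercapnia libraries HC1 to HC4 gave 2842, 2935, 1782 and 1931 RPM (log2 0.36, SE 0.55). Like Fosb and Junb it was highest in NC2 and lowest in NC3. Zfp36l2 (-0.27, SE 0.31) and Hnrnpd (0.28, SE 0.35) overlapped as well. Among 28 further primary response genes 0 were called with all libraries. Without NC2 9 were called, all higher, beside 5.04% of all genes (671 higher and 534 lower). Without NC1 2 were called lower, beside 8.32% of all genes, and without NC3 2 lower, beside 2.57%. In both edgeR and DESeq2 1 was called lower. With all libraries 18 had a positive and 10 a negative difference (median 0.16). The smallest p values belonged to Klf10 (-0.28, SE 0.12), which was under the fold threshold, and Csrnp1 (0.66, SE 0.38). Nfkbia, the inhibitor that NF-kB induces against itself and the highest in RPM of the list, was at 691, 3911 and 1582 RPM against 1376, 1264, 1461 and 1273 RPM, again with NC2 the highest library and all of hypercapnia inside the normocapnia range.

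Of 12 genes long known to carry AP-1 sites 1 was called in limma, Plau, which encodes the urokinase that opens the matrix ahead of moving cells. It stood at 352, 336 and 255 RPM in normocapnia and 725, 567, 399.9 and 466 RPM in hypercapnia, with the groups apart (log2 0.76, SE 0.24, limma adjusted p = 0.915). The call was lost without NC3 (0.61) or HC2 (0.72). In edgeR 2 and in DESeq2 3 of the 12 were called, all lower, and Plau was not among them. The other named targets overlapped, with Cd44 at -0.66 (SE 0.33; called lower in DESeq2, -1.07) and Spp1 at 0.60 (SE 0.38), and 6 of the 12 had a positive difference. Of 10 heat shock genes, which are known to respond to cell dissociation together with immediate early genes, 5 were measured. Hsph1 was called higher and apart, at 120, 78.0 and 42.1 RPM against 195, 165, 224 and 268 RPM (2.83-fold, SE 0.38 on the log2 scale; limma adjusted p = 0.827), and it was called when any 1 library was left out. Hspe1 (0.68, SE 0.44) overlapped, as did Dnajb1 (0.09, SE 0.15), Hspa1b (0.18, SE 0.49) and Hspa1a (-0.17, SE 0.56), the last 3 named after their values were seen. Over the 8 lists together 4 of 106 measured genes were called, 2 higher and 2 lower. Beside this stand 2.57% of all genes and 5.54% of those averaging 10 RPM or above, a level that 92 of the 106 reached. The balance of higher and lower calls depended on the method and on single libraries. It was 1 higher and 8 lower in edgeR and 1 higher and 14 lower in DESeq2. Without NC2 it was 15 higher and 1 lower, beside 671 higher and 534 lower of all genes. Without NC1 it was 8 higher and 12 lower, beside 1495 higher and 495 lower. Of the other genes named from the lists, Mapkapk2 (-0.82) and Cd44 (-0.99) were called lower and Fosl1 (0.96) and Hspe1 (1.22) higher without NC1. Csrnp1 (1.10) was called higher without NC2, and Jdp2 (-0.90) and Dusp16 (-0.61) lower without HC3. Creb1 (-0.59) was called lower in DESeq2, and Spp1 (0.69) higher with quantile normalization. Other omissions weakened these differences, with Mapkapk2 at -0.03, Cd44 at -0.33, Fosl1 at 0.38, Hspe1 at 0.39 and Csrnp1 at 0.35 without NC3. Jdp2 came to -0.51 and Spp1 to 0.30 without HC1, and Dusp16 to -0.29 and Creb1 to -0.34 without NC2.

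**Figure D5:**
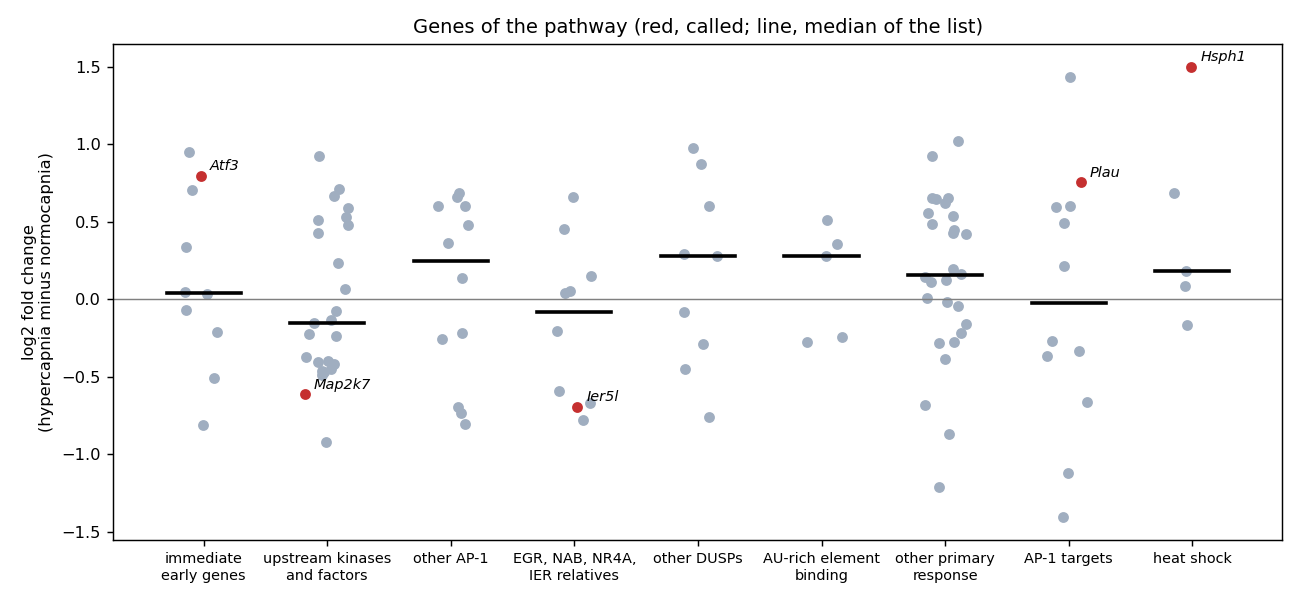
log2 fold change (hypercapnia minus normocapnia, vertical axis) of the 10 immediate early genes and of the measured genes of 8 related lists, one point per gene, with the median of each list as a bar. Called genes are red and named, and the list medians lie between -0.15 and 0.28.

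The genes whose course over the 7 libraries was closest to the average course of the members were Lemd2, Ino80b, Zfp638, Slc25a12 and E030024N20Rik, taken from all other genes averaging 10 RPM or above. Likeness is the root mean square difference between profiles of log2(RPM + 1), each set to a mean of 0, and it was 0.07 to 0.10 for these 5, beside a median of 0.56 over all such genes. Lemd2 stood at 28.5, 44.2 and 15.01 RPM in normocapnia and at 30.7, 32.3, 31.7 and 30.5 RPM in hypercapnia. Of the members Fos was closest to their average (0.11), followed by Junb (0.31). Egr1 (0.92), Fosb (0.87), Ier2 (0.83) and Dusp1 (0.78) lay farther from it than the median gene did. Egr1 and Dusp1 were highest in NC3, where the average was lowest.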

How the data were processed

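RNA from sorted Pax7-GFP cells of 3 normocapnia and 4 hypercapnia samples was amplified with a mouse AmpliSeq panel and sequenced on an Ion Torrent instrument. The authors deposited 1 table of RPM values (reads scaled to an equal total per library) for 23930 genes. Its aligner and genome build: not given in the sources used here. Columns were matched to samples by barcode, and 0 value columns were left unused. All values were whole multiples of 1 read within 0.05 reads, which gave the total reads of each library and a floor of 3 reads. Groups were compared with limma 3.58.1 (R 4.3.3) on log2(RPM + 1), unfiltered, and adjusted by Benjamini-Hochberg. A call needed both a fold change above 1.5 and p below 0.05 before adjustment. Fold changes on this scale understate those of low genes. edgeR 4.0.16 and DESeq2 1.42.0 on the recovered reads, other pseudocounts (0.1 and 5 RPM), a filter at 1 RPM, other scalings, a replicate block and leaving out each library were alternatives. The limma fit and the recovery of reads were tested on simulated data; the edgeR and DESeq2 fits were not. Named genes were all members and, from each related list, the 2 with the smallest p, the one highest in RPM and every called gene; from each marker list, the 2 highest in RPM; and the 5 genes most like the members. The members and lists were chosen with earlier results of these data known. Promoter windows came from RefSeq (GRCm38.p6). Intervals cover 95%. Some items are not reported here.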

Additional observations from a re-analysis of the deposited data

Results flagged for a closer look

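Mapkapk2, which encodes a kinase downstream of p38 and was named as the signaling gene with the highest RPM, stood at 582 RPM in HC3, whereas the other hypercapnia libraries lay between 464 and 473 RPM. The gap to its nearest neighbor took up 0.930 of the range of the group, above the critical value of Dixon's test for 4 samples. Of 33 genes examined in this way 1 passed, and chance alone passes about 1 in 20.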

How the results depend on the processing

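The number of members called was 1 in limma under both other pseudocounts, the filter and both scalings, but 0 in edgeR with its filter and 2 in DESeq2, and it ranged from 0 to 1 when a library was left out. The number of genes called was 615, and 1049 in edgeR without a filter and 1304 in DESeq2; without a library it ranged from 376 (HC2) to 1990 (NC1). Of the 106 genes of the related lists 4 were called, and 2 with a pseudocount of 5 RPM, 9 in edgeR, 12 in edgeR without a filter and 15 in DESeq2, with a range of 2 to 20 without a library. Between 1 and 2 members had groups apart without a library, while the share of genes at 10 RPM or more that were apart rose from 9.62% to 31.5% without NC1, 25.9% without NC2 and 19.4% without NC3. Atf3 lost its call in edgeR (0.66 with and 0.66 without a filter), and Egr1 was called lower in edgeR without a filter (-1.13) and DESeq2 (-1.23). Signs turned for Fos (-0.094 with median-of-ratios scaling, -0.12 in edgeR with and -0.12 without a filter, -0.16 in DESeq2), Junb (-0.11, -0.28, -0.30 and -0.31 in the same order), and in edgeR with a filter, without one and DESeq2 for Fosb (-0.18, -0.20 and -0.20) and Nr4a1 (-0.16, -0.18 and -0.18). The causes were not tested. Leaving out 1 library gave -0.24 to 0.36 for Fos, -0.41 to 1.77 for Fosb, -0.64 to 0.58 for Junb, -0.24 to 0.088 for Jund, 0.49 to 1.04 for Atf3, -0.18 to 1.74 for Ier2, -1.05 to -0.17 for Dusp1, -0.54 to 1.06 for Nr4a1, -0.55 to 0.070 for Zfp36l2, -0.13 to 0.59 for Hnrnpd, -0.11 to 0.96 for Zfp36 and -0.89 to 0.36 for Nfkbia. Outside the members, Plau was not called in edgeR, DESeq2 or with median-of-ratios scaling (0.61), and Jdp2 was called lower in both count tools (-0.86 in edgeR, -0.91 in DESeq2).

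The replicate numbers are shared by the groups, but of the same-numbered pairs only the second deviated together (correlations over 8229 genes of -0.38, 0.51 and 0.03), and NC1 was most like HC3. With the replicate number as a block 598 genes were called; Atf3 was no longer called (0.78), Egr1 (-0.85) and Jdp2 (-0.67) were called lower, as was 1 of the further primary response genes, and Hsph1 (1.39) and Map2k7 (-0.57) were not called. HC4 has no partner there.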
